A study of Homo sapiens with 8 samples.

Results

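The transcripts described here are those of the 3 nuclear RNA polymerases and of Mediator, in C4-2 cells treated with DTHIB or with its solvent. The genes were chosen by symbol: protein-coding genes named POLR1, POLR2 or POLR3 plus a subunit letter, or MED plus a number, with a mean normalized count of 10 or more over the 8 libraries. Of 58884 genes in the deposited table, 65 had such a symbol; 64 of these were protein coding, and all 64 met the limit on the mean. They comprise 6 Pol I genes, 7 genes for subunits that polymerases share, 11 Pol II genes, 10 Pol III genes and 30 Mediator genes, and they stand for 63 symbols because POLR2J3 has 2 gene identifiers. The treated group held 4 libraries of cells given 1 µM DTHIB, also called E12, for 48 h, and the control group held 4 libraries of cells given DMSO. Both groups were grown in RPMI 1640 with 10% FBS. C4-2 is a castration-resistant prostate cancer line derived from LNCaP, and DTHIB is described as a direct inhibitor of heat shock factor 1 (HSF1). Whether replicates came from separate cultures is not labelled; p-values therefore reflect library-to-library spread alone, and that spread may be technical.

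Pol I makes the large ribosomal RNA precursor, Pol II makes messenger RNA and most small nuclear RNA, and Pol III makes transfer RNA and other short RNAs. Each is built on a pair of large catalytic subunits, with an assembly pair, small subunits common to all of them, and peripheral subunits that form a stalk or help in initiation. Mediator carries signals from DNA-bound transcription factors, nuclear hormone receptors in prostate cells among them, to Pol II. Its head and middle contact the polymerase, MED14 runs through it as a scaffold, its tail receives activators, and a kinase module of MED12, MED13, cyclin C and CDK8 or CDK19 binds it reversibly.

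Library totals, as reads recovered from the normalized counts, were 27229291 to 29159387 in DTHIB and 29499458 to 30926053 in DMSO, and the libraries correlated at 0.993 to 0.994 within groups and 0.973 to 0.981 between groups. The luminal prostate markers were all well above the limit on the mean, with 10 of 10 tested, and KLK3 averaged 93753 ± 1168 in DTHIB and 66682 ± 643 in DMSO (SD, n = 4 each). Of the 10, 7 were higher in DTHIB and 3, KRT8, KRT18 and HOXB13, were lower (median log2 fold change 0.25). Of 10 stromal markers 3 were tested, their list summed to 1267 to 1503 in DTHIB and 1050 to 1159 in DMSO, and PDGFRA was listed at 0. Of 8 blood markers 3 were tested, their list summed to 31.9 to 54.9 in DTHIB and 42.5 to 53.6 in DMSO, and HBB was listed at 0. All 6 HSF1 target genes taken as a check of the treatment were lower in DTHIB, where 33.7% of all tested genes were lower and 31.0% higher. The median log2 fold change of the 6 was -0.56. Whether these markers bear on the subunit results was not tested.

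More subunit transcripts were lower than higher after DTHIB. Of the 64 genes, 34 fell, 10 rose and 20 did not pass the test, and the median log2 fold change was -0.11. The background was high: 64.6% of the 17194 tested genes changed, 31.0% upwards and 33.7% downwards, with a median of -0.01. The subunits changed at a share near that background (68.8%), with 15.6% higher and 53.1% lower. The changes were modest, since the largest, that of POLR3G, was -0.84 on the log2 scale and short of a 2-fold difference. All 4 DTHIB libraries lay above all 4 DMSO libraries for 10 subunits, against 27.1% of tested genes, and below them for 33 subunits, against 30.8% of tested genes; groups were apart for 57.9% of tested genes in either direction. These values are shares of the messenger RNA in bulk lysates, so a change in RNA per cell and a change in the mix of cell states cannot be told apart.

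Over all tested genes 33.7% fell, 31.0% rose and 64.6% changed. The changed share was 63.3% in Mediator, 66.7% in Pol I, 70% in Pol III, 72.7% in Pol II and 85.7% in the shared subunits. By complex, Pol III had 7 genes lower, 0 higher and 3 that did not pass, with a median log2 fold change of -0.13. Mediator had 14 lower, 5 higher and 11 that did not pass, with a median of -0.11. Pol I had 3 lower, 1 higher and 2 that did not pass (median -0.12), and the shared subunits had 5 lower, 1 higher and 1 that did not pass (median -0.11). Pol II had 5 lower, 3 higher and 3 that did not pass; its median was -0.02, and became 0.05 with quantile normalization, -0.14 with a mean of at least 50 and 0.01 without DTHIB replicate 4. With quantile normalization the medians of Pol III, Mediator and the shared subunits were nearer to 0, at -0.06, -0.05 and -0.03, and 1 Pol III gene was higher. The Pol I median was -0.03 with quantile normalization, -0.21 with a mean of at least 50 and -0.29 without DTHIB replicate 3. The 4 MED genes of the kinase module (MED12, MED12L, MED13 and MED13L) had a median of 0.30, while the 26 genes of the rest of Mediator had a median of -0.15. With CDK8, CDK19 and cyclin C, whose genes are not MED genes and all fell, 3 of 7 kinase module genes rose and 4 fell, with a median of -0.09, or -0.01 with quantile normalization. Library by library, the median of these 4 MED genes, centred on the mean of all 8 libraries, was 0.08 to 0.25 in DTHIB and -0.17 to -0.12 in DMSO. The same measure for the rest of Mediator was -0.10 to -0.05 in DTHIB and 0.05 to 0.13 in DMSO. Counts by complex moved in some settings. Higher Pol II genes numbered 1 with quantile normalization or without DMSO replicate 2, and higher Pol I genes 2 without DTHIB replicate 4. Lower Pol III genes numbered 4 with quantile normalization or DESeq2, and lower shared genes 2 with quantile normalization. No difference between complexes was tested.

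**Figure D1:**
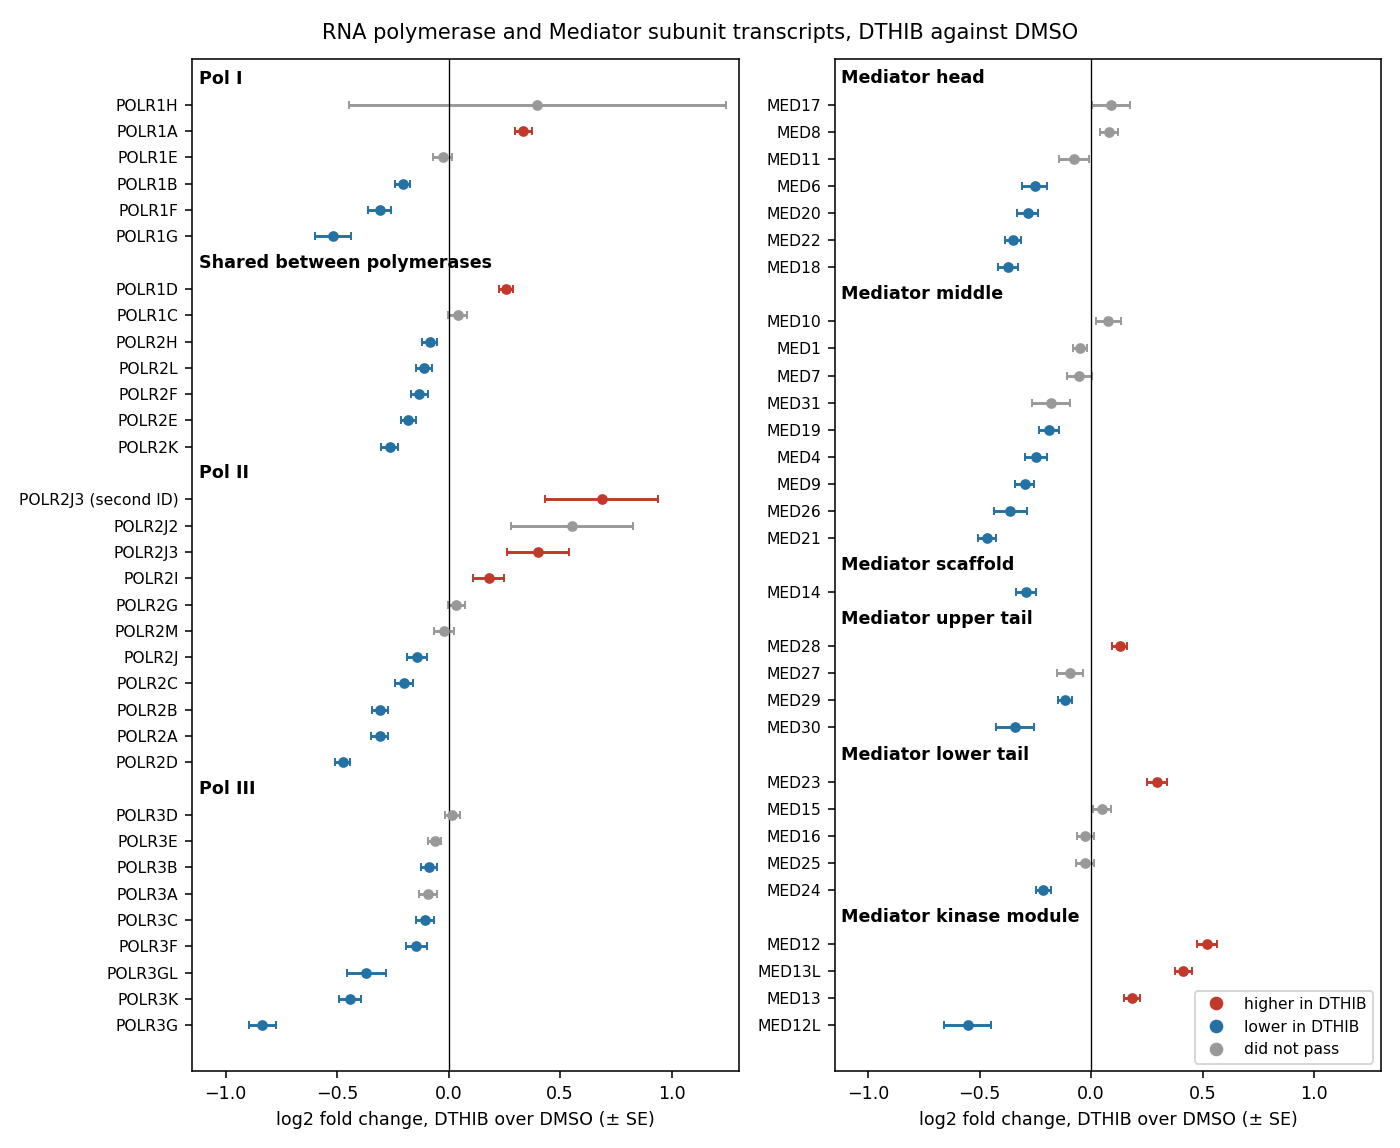
Log2 fold change (DTHIB over DMSO, points) with its standard error (bars) for 63 of the 64 genes, grouped by complex and, for Mediator, by module; red points were higher, blue lower, and grey did not pass at a limma adjusted p of 0.05. POLR3G lies farthest to the left at -0.84, and in the Mediator kinase module MED12, MED13L and MED13 lie right of 0 while MED12L lies left of it.

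Promoter sequences of 46 of the genes were matched in RefSeq (GRCh38.p14), as the 250 bases before each gene's start. Those printed belong to polymerase and Mediator genes with large called changes among matched genes with a mean of at least 100, under 10% of exon bases opposite another gene and at most 30 annotated exon bases in the window: POLR1D and MED13L, which rose, and POLR2D and MED9, which fell. Capitals mark any match, on either strand, to the motifs searched.
POLR1D: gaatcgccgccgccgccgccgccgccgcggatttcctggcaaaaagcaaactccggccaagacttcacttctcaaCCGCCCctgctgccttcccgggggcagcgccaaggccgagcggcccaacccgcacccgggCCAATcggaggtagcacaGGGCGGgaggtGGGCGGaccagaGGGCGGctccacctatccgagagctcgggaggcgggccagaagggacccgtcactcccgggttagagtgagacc
POLR2D: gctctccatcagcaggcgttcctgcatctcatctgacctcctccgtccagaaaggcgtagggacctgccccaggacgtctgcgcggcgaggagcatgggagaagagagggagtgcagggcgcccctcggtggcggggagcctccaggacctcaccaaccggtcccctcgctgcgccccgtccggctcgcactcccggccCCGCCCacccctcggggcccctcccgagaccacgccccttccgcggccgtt
MED13L: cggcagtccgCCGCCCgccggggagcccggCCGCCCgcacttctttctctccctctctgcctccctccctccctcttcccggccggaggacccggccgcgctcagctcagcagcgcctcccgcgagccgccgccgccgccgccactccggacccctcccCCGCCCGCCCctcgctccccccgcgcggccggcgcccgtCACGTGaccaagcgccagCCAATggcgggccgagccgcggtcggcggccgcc
MED9: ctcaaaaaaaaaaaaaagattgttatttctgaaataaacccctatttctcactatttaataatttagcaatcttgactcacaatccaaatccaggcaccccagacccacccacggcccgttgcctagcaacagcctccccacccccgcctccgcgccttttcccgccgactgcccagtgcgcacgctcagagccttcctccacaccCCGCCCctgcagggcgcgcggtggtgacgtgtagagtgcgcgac
The POLR1D window (chr13:27620493-27620742, plus strand) held 4 GC boxes (GGGCGG), the first of them printed as the reverse complement, and 1 CCAAT. The POLR2D window (chr2:127858156-127858405, minus strand) and the MED9 window (chr17:17476750-17476999, plus strand) each held 1 GC box, printed as the reverse complement. The MED13L window (chr12:116277694-116277943, minus strand) held 6 matches: 4 GC boxes, all printed as the reverse complement and the last 2 overlapping, 1 E-box (CACGTG) and 1 CCAAT. GC boxes thus stood before genes that rose and before genes that fell, and none of the 4 windows held a heat shock element.

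Over the 46 promoters, the heat shock element letters GAANNTTC, the core to which HSF1 binds, were found in 4 (8.70%; POLR1A, POLR3F, MED19 and MED27), against 5.85% of 27303 RefSeq promoters. The reverse arrangement TTCNNGAA was found in 6 (13.0%), against 6.72%. The ETS site CCGGAAGT was found in 8 (17.4%), against 3.64% of all promoters, and the GC box in 29 (63.0%), against 42.3%. The E-box CACGTG was found in 4 (8.70%, against 6.49%), CCAAT in 13 (28.3%, against 33.0%) and TATAAA in 3 (6.52%, against 11.1%). The cyclic AMP response element TGACGTCA was found in 2 (4.35%, against 1.77%), as was the NRF1 site (4.35%, against 1.13%). The 46 genes all met the limit on the mean count, whereas the 27303 promoters outnumber the 17194 tested genes, so the sets may differ in expression. Overlapping matches of different motifs were each counted, and a letter match is a description only.

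In Pol I, the catalytic subunits moved in opposite directions. POLR1A (chr2:86020216-86106155, minus strand, GRCh38), the largest catalytic subunit, had 4247, 4573, 4304 and 4672 normalized counts in the 4 DTHIB libraries, against 3455, 3486, 3379.6 and 3782 in the 4 DMSO libraries. Every DTHIB library lay above every DMSO library, and POLR1A rose with a difference of 0.34 on the log2 scale (SE 0.039, limma adjusted p = 9.94e-07). Its change was 0.17 once per-library trends with transcript length and GC content were removed, and it was still called. POLR1B (chr2:112541915-112577150, plus strand), the second largest subunit, which forms the active centre together with POLR1A, had 1970.3, 2013, 2025 and 1883 in DTHIB, against 2202, 2245, 2333 and 2319.7 in DMSO. The groups did not overlap, and POLR1B fell with a difference of -0.21 on the log2 scale (SE 0.035, limma adjusted p = 6.12e-05); with quantile normalization the change was -0.12.

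The peripheral Pol I subunits were lower or unresolved. POLR1G (chr19:45406209-45410766, plus strand) forms with POLR1E a pair that helps the enzyme initiate and elongate. It had 201, 166, 179.8 and 203 normalized counts in DTHIB, against 263, 275, 269 and 266 in DMSO, and fell with a difference of -0.52 on the log2 scale (SE 0.08, limma adjusted p = 2.25e-05). The 4 DMSO libraries lay close together and all above the DTHIB ones. Of the exon bases of POLR1G, 45.1% overlap ERCC1 or PPP1R13L on the opposite strand, and whether counting used strand is not stated, so its reads cannot be told apart from theirs. POLR1E did not pass (log2 fold change -0.03, limma adjusted p = 0.609). POLR1F (chr7:19695462-19709087, minus strand), the stalk subunit that contacts the initiation factor RRN3, had 1476, 1402, 1588 and 1313 in DTHIB, against 1907, 1759.8, 1757 and 1728 in DMSO, without overlap. POLR1F fell with a difference of -0.31 on the log2 scale (SE 0.051, limma adjusted p = 4.43e-05), and the change was -0.20 with length and GC trends removed.

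POLR1H, the zinc ribbon subunit for RNA cleavage, had 10.4, 27.1, 54.9 and 0 normalized counts in DTHIB, against 2.87, 9.57, 8.68 and 14.0 in DMSO. The DTHIB libraries spread from 0 to the highest value and enclosed the DMSO ones, and POLR1H did not pass (log2 fold change 0.40, limma adjusted p = 0.697). The gene has copies outside the primary assembly, as MED16, MED18, MED22 and POLR3E also have, so reads for these 5 genes may have been split or left uncounted. The POLR1H change was -0.36 without DTHIB replicate 3, -0.03 without DTHIB replicate 2, and 1.58 and called without DTHIB replicate 4.

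Of the assembly pair that Pol I and Pol III share, POLR1D rose and POLR1C did not pass (log2 fold change 0.04, limma adjusted p = 0.433). POLR1D (chr13:27620742-27744237, plus strand) had 7458, 6951, 7347 and 7426 normalized counts in DTHIB, against 5973, 6084, 6338 and 5998 in DMSO. All DTHIB libraries were above all DMSO libraries, with a difference of 0.26 on the log2 scale (SE 0.031, limma adjusted p = 1.25e-06). POLR1D is counted here with the shared subunits, so POLR1A was the only gene counted under Pol I that rose. The POLR1D rise belongs to Pol III as much as to Pol I.

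All 5 subunits common to the 3 polymerases fell, by small amounts, where 33.7% of all tested genes fell. POLR2K, a small zinc-binding subunit, averaged 1778 ± 73.9 in DTHIB and 2134 ± 67.2 in DMSO (SD, n = 4 each), a difference of -0.26 on the log2 scale (SE 0.037, limma adjusted p = 9.21e-06). POLR2E averaged 5767 ± 234 in DTHIB and 6529 ± 147 in DMSO, a difference of -0.18 on the log2 scale (SE 0.032, limma adjusted p = 0.00011); with quantile normalization its change was -0.10. POLR2F (log2 fold change -0.13, limma adjusted p = 0.00816) and POLR2L (log2 fold change -0.11, limma adjusted p = 0.0119) had overlapping groups and lost the call with quantile normalization, at limma adjusted p = 0.321 for POLR2F and 0.438 for POLR2L. POLR2H (log2 fold change -0.08, limma adjusted p = 0.0356) passed in 8 of 18 alternative settings, and its change was 0.01 with quantile normalization. Its call was lost at limma adjusted p = 0.0538 to 0.126 without DTHIB replicate 1, 2 or 4 or DMSO replicate 1 or 3.

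In Pol II, both catalytic subunits fell. POLR2A (chr17:7484366-7514616, plus strand), which carries the C-terminal heptad repeat domain, had 4739.7, 5126, 5145 and 4949 normalized counts in DTHIB, against 6470.4, 6467, 6012 and 5793 in DMSO. Every DTHIB library lay below every DMSO library, with a difference of -0.31 on the log2 scale (SE 0.038, limma adjusted p = 2.06e-06). POLR2B (chr4:56977722-57031168, plus strand) had 6011, 5727, 6167 and 5677 in DTHIB, against 7566, 7175, 7449 and 6989 in DMSO. The groups were again apart, and POLR2B fell with a difference of -0.31 on the log2 scale (SE 0.034, limma adjusted p = 4.86e-07).

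The Pol II stalk pair moved unevenly. POLR2D (chr2:127843551-127858157, minus strand), one side of the stalk that guides the emerging RNA, had 1905, 1848, 1808 and 1845 normalized counts in DTHIB, against 2507, 2614, 2541 and 2636 in DMSO. Both groups were tight and far apart, and POLR2D had a difference of -0.48 on the log2 scale (SE 0.032, limma adjusted p = 1.05e-09), the largest fall in Pol II. Its partner POLR2G averaged 1487 ± 38.6 in DTHIB and 1452 ± 67.2 in DMSO and did not pass (log2 fold change 0.04, limma adjusted p = 0.451). Of the assembly pair, POLR2C fell (log2 fold change -0.20, limma adjusted p = 0.000307; -0.11 with quantile normalization) and so did POLR2J (log2 fold change -0.14, limma adjusted p = 0.0119), whose call was lost with quantile normalization at limma adjusted p = 0.387. POLR2M, which binds Pol II and makes it dependent on Mediator, did not pass (log2 fold change -0.02, limma adjusted p = 0.726).

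The 3 Pol II genes that rose share reads with copies or lie opposite other genes. POLR2I (chr19:36113710-36115346, minus strand), a subunit used in start site choice and transcript fidelity, had 285, 261, 287 and 259 normalized counts in DTHIB, against 248, 229.7, 247 and 237 in DMSO. The groups did not overlap, with a difference of 0.18 on the log2 scale (SE 0.069, limma adjusted p = 0.0303), but it passed in 11 of 18 alternative settings, and 79.6% of its exon bases overlap genes on the opposite strand, among them TBCB and OVOL3. The POLR2I call was lost at limma adjusted p = 0.0590 to 0.0801 without DTHIB replicate 1 or 3 or DMSO replicate 2 or 4, and its change was 0.05 with length and GC trends removed. POLR2J3 (chr7:102537918-102572653, minus strand), a near-identical copy of POLR2J, had 66.7, 56.3, 70.9 and 74.8 in DTHIB, against 48.8, 45.0, 55.0 and 53.1 in DMSO, a difference of 0.40 on the log2 scale (SE 0.14, limma adjusted p = 0.0191). The second POLR2J3 identifier (chr7:102562133-102572583, minus strand) had 30.2, 52.1, 28.0 and 32.9 in DTHIB, against 23.0, 27.8, 12.5 and 25.1 in DMSO, a difference of 0.69 on the log2 scale (SE 0.26, limma adjusted p = 0.0263). Neither overlapped between groups, but each lost its call in 3 settings. These were quantile normalization for both, the omission of DTHIB replicate 4 (limma adjusted p = 0.0628) or DMSO replicate 2 (0.0560) for the first, and the omission of DTHIB replicate 2 (0.105) or DMSO replicate 3 (0.103) for the second. The authors' deposited DESeq2 results called neither POLR2I (DESeq2 adjusted p = 0.112) nor POLR2J3 (0.0771) nor its second identifier (0.0543). Among the falls, the deposited results did not call POLR2H (DESeq2 adjusted p = 0.0652), POLR3B (0.0986) or POLR3C (0.102). Reads can be divided among POLR2J and its copies. POLR2J2, another copy, did not pass (log2 fold change 0.55, limma adjusted p = 0.0878), but did without DTHIB replicate 1 (change 0.82) or DMSO replicate 4 (0.72).

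The 10 genes counted under Pol III leave out shared subunits such as POLR1D, which rose. Of these 10, 8 had all DTHIB libraries below all DMSO libraries, beside the 30.8% of tested genes, and 0 had them above. The Pol III catalytic subunits moved little. POLR3A (chr10:77969251-78029545, minus strand) had 2046, 2216, 2188 and 2107 normalized counts in DTHIB, against 2479.6, 2199, 2216 and 2229 in DMSO; the groups overlapped and it did not pass (log2 fold change -0.09, limma adjusted p = 0.0617). POLR3B (chr12:106357658-106510198, plus strand) had 1373, 1345, 1350.2 and 1351 in DTHIB, against 1479.7, 1412, 1448 and 1419.9 in DMSO, a difference of -0.09 on the log2 scale (SE 0.034, limma adjusted p = 0.0329). The POLR3B groups were apart, but the difference was small and passed in 8 of 18 alternative settings. Its call was lost at limma adjusted p = 0.0533 to 0.105 without DTHIB replicate 2, 3 or 4 or DMSO replicate 1 or 3. POLR3A passed without replicate 2 of either group, at a change of -0.11 each, and with length and GC trends removed, at -0.12 (limma adjusted p = 0.0139).

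The larger Pol III changes were in the peripheral subunits. POLR3G (chr5:90471748-90514553, plus strand), known as the form of its subunit in stem cells and many tumours, had 396, 388, 429 and 368 normalized counts in DTHIB, against 723, 749, 705 and 646 in DMSO. The highest DTHIB library was far below the lowest DMSO library, and the mean was 395 ± 25.6 in DTHIB and 706 ± 43.7 in DMSO (SD, n = 4 each). POLR3G fell with a difference of -0.84 on the log2 scale (SE 0.06, limma adjusted p = 2.36e-09), which ranged from -0.88 to -0.73 over the 18 alternative settings. POLR3GL (chr1:145964702-145978848, plus strand), the paralog found in most adult tissues, had 171, 155, 189.8 and 155 in DTHIB, against 216, 232, 205 and 211 in DMSO. It fell too, without overlap, with a difference of -0.37 on the log2 scale (SE 0.086, limma adjusted p = 0.00128). Of the POLR3GL exon bases 21.2% overlap AC243547.3 on the same strand. POLR3K (chr16:46407-53628, minus strand), the RNA cleavage and termination subunit, had 1169, 1064, 1233 and 1049 in DTHIB, against 1575, 1464, 1569.7 and 1524 in DMSO. All its DTHIB libraries were lower, with a difference of -0.44 on the log2 scale (SE 0.049, limma adjusted p = 5.39e-07).

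The other members of the initiation trimer to which POLR3G and POLR3GL belong fell less. POLR3F (log2 fold change -0.14, limma adjusted p = 0.0126) was not called with quantile normalization, DESeq2 or the length and GC trend removed, where the limma adjusted p was 0.509, and POLR3C (log2 fold change -0.11, limma adjusted p = 0.0314) passed in 9 of 18 settings. The POLR3C call was lost at limma adjusted p = 0.0547 to 0.106 without replicate 2 of either group, DTHIB replicate 4 or DMSO replicate 3. In the pair that works in initiation and termination, POLR3D (log2 fold change 0.02, limma adjusted p = 0.683) and POLR3E (log2 fold change -0.06, limma adjusted p = 0.0706) did not pass, although the POLR3E groups did not overlap.

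**Figure D2:**
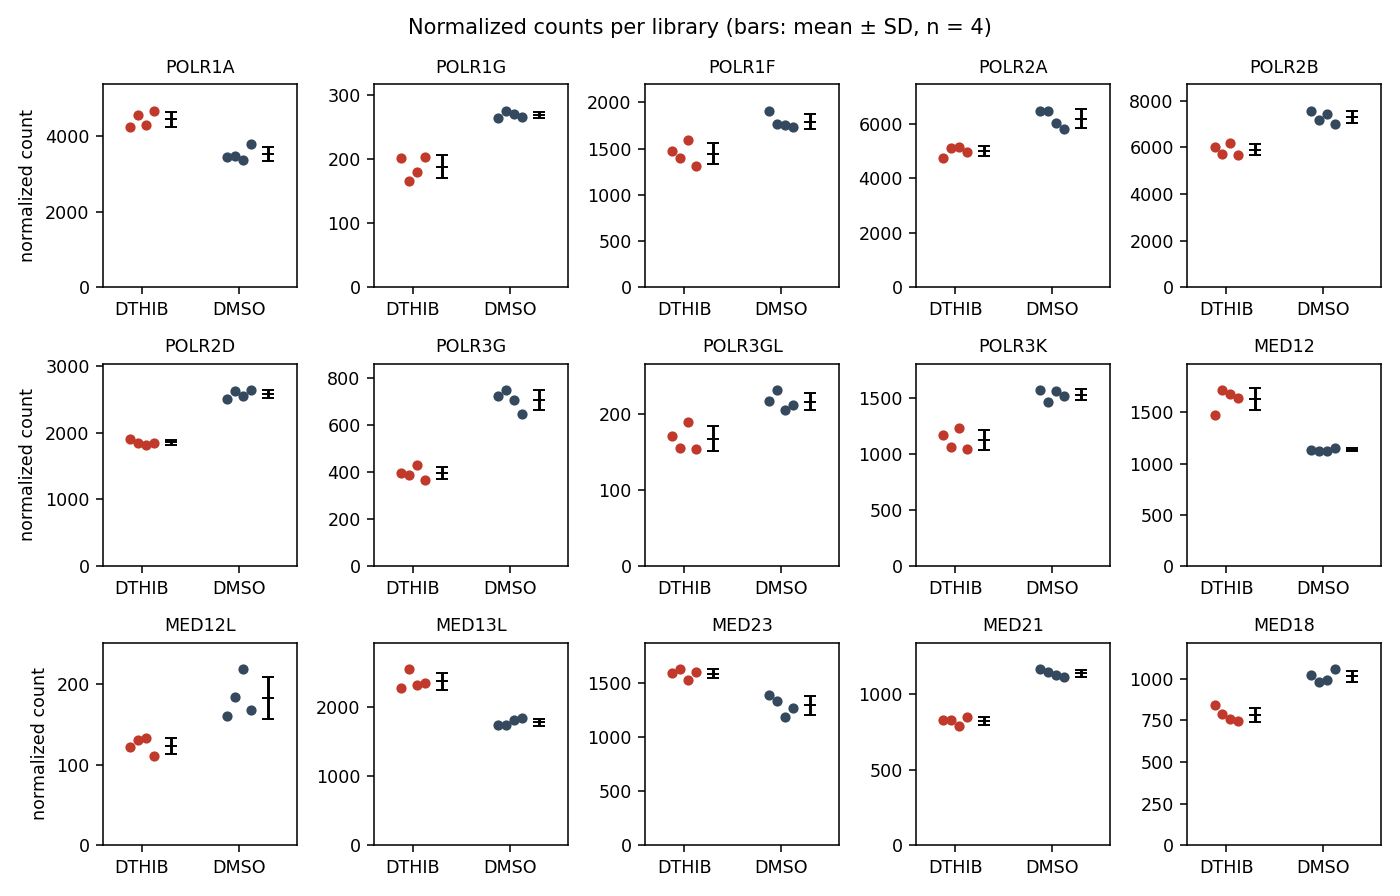
Normalized counts of 15 genes in each library (points), with DTHIB on the left and DMSO on the right of each panel, and the mean ± SD of the 4 libraries beside them; every vertical axis starts at 0. In all 15 panels the groups do not overlap, with DTHIB higher for POLR1A, MED12, MED13L and MED23 and lower for the other genes.

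In the Mediator head, which docks on Pol II, 4 of 7 genes fell and 0 rose, where 33.7% of all tested genes fell and 31.0% rose. The head median was -0.25 on the log2 scale. MED18 (chr1:28329002-28335967, plus strand), part of the movable jaw, had 841, 787, 758 and 747 normalized counts in DTHIB, against 1024, 979.9, 993 and 1057 in DMSO. Its groups were apart, with a difference of -0.37 on the log2 scale (SE 0.046, limma adjusted p = 2.12e-06). MED20, the jaw partner of MED18, fell (log2 fold change -0.29, limma adjusted p = 7.31e-05), as did MED22 (log2 fold change -0.35, limma adjusted p = 2.15e-07) and MED6 (log2 fold change -0.25, limma adjusted p = 0.000669). The MED6 change was -0.15 with length and GC trends removed. MED8 (log2 fold change 0.08, limma adjusted p = 0.0929), MED11 (log2 fold change -0.08, limma adjusted p = 0.333) and MED17 (log2 fold change 0.09, limma adjusted p = 0.381), the central head subunit, did not pass, although MED8 was called higher with quantile normalization (0.16), TMM or edgeR (0.09 each) and MED11 lower without DTHIB replicate 3 (-0.15) or with length and GC trends removed (-0.18). Of the MED11 exon bases 36.9% overlap CXCL16 or AC091153.4 on the opposite strand.

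In the middle module, 5 of 9 genes fell and 0 rose, beside 33.7% of all tested genes lower and 31.0% higher, and the median was -0.19. MED21 (chr12:27022546-27066343, plus strand), which forms the hinge of the middle with MED7, had 828, 829, 786 and 847 normalized counts in DTHIB, against 1164, 1147, 1123 and 1111 in DMSO. The groups were tight and apart, and MED21 had a difference of -0.47 on the log2 scale (SE 0.04, limma adjusted p = 2.24e-08), the largest fall of Mediator outside the kinase module. MED7 itself did not pass (log2 fold change -0.05, limma adjusted p = 0.431). MED26, which brings elongation factors to Pol II and is usually found on Mediator without the kinase module, averaged 184 ± 4.25 in DTHIB and 237 ± 13.9 in DMSO, a difference of -0.36 on the log2 scale (SE 0.075, limma adjusted p = 0.000428). MED9 (log2 fold change -0.30, limma adjusted p = 9.69e-06), MED4 (log2 fold change -0.25, limma adjusted p = 0.000226; -0.15 with length and GC trends removed) and MED19 (log2 fold change -0.19, limma adjusted p = 0.0014) fell. MED1, the subunit that nuclear receptors bind, averaged 3653 ± 114 in DTHIB and 3781 ± 96.4 in DMSO and did not pass (log2 fold change -0.05, limma adjusted p = 0.178). MED10 (log2 fold change 0.08, limma adjusted p = 0.246) and MED31 (log2 fold change -0.18, limma adjusted p = 0.0681) did not pass either; MED10 was called higher with quantile normalization (0.14) or without DMSO replicate 3 (0.14), and MED31 lower with quantile normalization (-0.25). Of the MED31 exon bases 58.3% overlap TXNDC17 on the opposite strand. For MED26, 41.9% of exon bases overlap other genes on the same strand and 11.9% overlap genes on the opposite strand.

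MED14, the scaffold, averaged 1454 ± 97.5 in DTHIB and 1781 ± 61.0 in DMSO (SD, n = 4 each) and fell with a difference of -0.29 on the log2 scale (SE 0.045, limma adjusted p = 2.18e-05). In the upper tail, MED30 (log2 fold change -0.34, limma adjusted p = 0.00235) and MED29 (log2 fold change -0.12, limma adjusted p = 0.00246) fell, MED28 rose (log2 fold change 0.13, limma adjusted p = 0.00259) and MED27 did not pass (log2 fold change -0.09, limma adjusted p = 0.174). The MED28 call was lost with length and GC trends removed (change 0.06), its change was 0.22 with quantile normalization, and 32.1% of its exon bases overlap FAM184B on the opposite strand. The MED29 call was lost with quantile normalization at limma adjusted p = 0.414.

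In the lower tail, where activators bind, 1 of 5 genes rose and 1 fell, beside 31.0% of all tested genes higher and 33.7% lower. The median of the lower tail was -0.03, or 0.06 with quantile normalization. MED23 (chr6:131573966-131628229, minus strand), which receives signals from mitogen-responsive factors such as ELK1, had 1585, 1626, 1526 and 1596 normalized counts in DTHIB, against 1388, 1332, 1188 and 1263 in DMSO. No DTHIB library overlapped the DMSO range, with a difference of 0.29 on the log2 scale (SE 0.045, limma adjusted p = 2.18e-05). MED24, its neighbour in the tail, fell (log2 fold change -0.21, limma adjusted p = 3.61e-05; -0.13 with quantile normalization). MED15 (log2 fold change 0.05, limma adjusted p = 0.311), MED16 (log2 fold change -0.03, limma adjusted p = 0.557) and MED25 (log2 fold change -0.03, limma adjusted p = 0.567) did not pass; MED15 was called higher with quantile normalization (0.12) and MED16 lower with length and GC trends removed (-0.10).

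In the kinase module all 4 MED genes changed, 3 upwards, where 64.6% of all tested genes changed and 31.0% rose. MED12 (chrX:71118556-71142454, plus strand), which activates the module's kinase, had 1475, 1718, 1677 and 1644 normalized counts in DTHIB, against 1135, 1123, 1124 and 1155 in DMSO. The DMSO libraries were nearly equal and all below the DTHIB ones, and MED12 rose with a difference of 0.52 on the log2 scale (SE 0.044, limma adjusted p = 2.01e-08). MED13L (chr12:115953872-116277719, minus strand), one of the pair of paralogs that link the module to the rest of Mediator, had 2269, 2547, 2322 and 2342 in DTHIB, against 1739, 1736, 1807 and 1833 in DMSO. It rose without overlap, with a difference of 0.41 on the log2 scale (SE 0.039, limma adjusted p = 6.44e-08). MED13 (chr17:61942605-62065282, minus strand), the other linker, had 2916, 3215, 3019 and 2918 in DTHIB, against 2721, 2666, 2533 and 2698 in DMSO. Its groups were apart but nearer to each other, with a difference of 0.18 on the log2 scale (SE 0.037, limma adjusted p = 0.000315). MED12L (chr3:151085697-151437072, plus strand), the scarce paralog of MED12, had 122, 130.3, 133 and 111 in DTHIB, against 161, 185, 219 and 168 in DMSO. It fell, with a difference of -0.55 on the log2 scale (SE 0.11, limma adjusted p = 0.000215); its exons overlap IGSF10 on the opposite strand.

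The enzymes of the kinase module did not follow MED12 and the linkers. CDK8 averaged 1290.4 ± 27.5 in DTHIB and 1622 ± 42.6 in DMSO (SD, n = 4 each) and fell with a difference of -0.33 on the log2 scale (SE 0.035, limma adjusted p = 3.69e-07). Its paralog CDK19 fell slightly, with 4039.6 ± 123 in DTHIB and 4307 ± 130.0 in DMSO, a difference of -0.09 on the log2 scale (SE 0.032, limma adjusted p = 0.0177), and passed in 13 of 18 alternative settings. The CDK19 call was lost at limma adjusted p = 0.0516 without DTHIB replicate 3, 0.0548 without DTHIB replicate 4 and 0.0694 without DMSO replicate 2, and its change was -0.01 with quantile normalization. CCNC, which encodes cyclin C, averaged 1183 ± 33.2 in DTHIB and 1312 ± 71.2 in DMSO and fell with a difference of -0.15 on the log2 scale (SE 0.043, limma adjusted p = 0.00569); its change was -0.03, and not called, with length and GC trends removed.

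The balance within 3 paralog pairs was compared per library, as the log2 ratio of one paralog's normalized count to the other's, with an exact two-sided permutation test over the 8 libraries. POLR3G over POLR3GL was 1.24 ± 0.06 in DTHIB and 1.70 ± 0.07 in DMSO (SD, n = 4 each), a difference of -0.47. That is a mean of 2.35 POLR3G counts for each POLR3GL count in DTHIB and 3.25 in DMSO. MED12 over MED12L was 3.71 ± 0.13 in DTHIB and 2.63 ± 0.21 in DMSO, a difference of 1.07, or 13.1 to 1 in DTHIB and 6.20 to 1 in DMSO. MED13 over MED13L was 0.35 ± 0.03 in DTHIB and 0.58 ± 0.07 in DMSO, a difference of -0.23. The 4 DTHIB ratios did not overlap the 4 DMSO ratios in any of the 3 pairs, and each exact permutation p was 0.0286, the smallest that the 70 regroupings of 4 against 4 allow, and 0.0286 after adjustment over the 3 pairs. With length and GC trends removed, the MED13 over MED13L difference was -0.12 (exact permutation test, adjusted p = 0.0571).

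**Figure D3:**
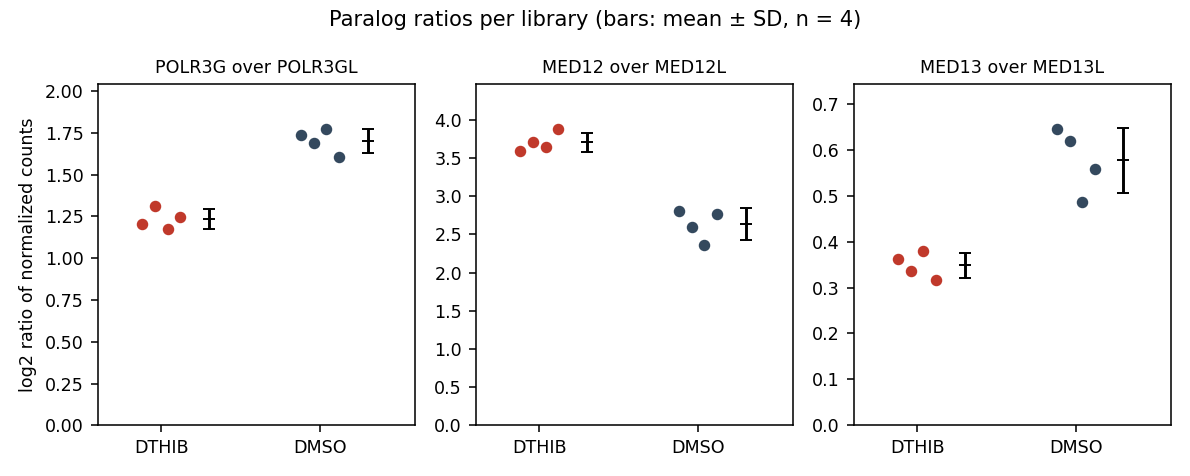
Log2 ratio of normalized counts within 3 paralog pairs in each library (points), DTHIB on the left and DMSO on the right, with the mean ± SD of 4 libraries; vertical axes start at 0. The POLR3G to POLR3GL and MED13 to MED13L ratios are lower in all 4 DTHIB libraries than in any DMSO library, and the MED12 to MED12L ratio is higher.

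Levels between genes were compared as normalized counts per kilobase of annotated exon. The highest were shared and Pol II subunits: POLR2L had 2806 in DTHIB and 3031 in DMSO, POLR2E 1185 in DTHIB and 1342 in DMSO, POLR2K 1039 in DTHIB and 1247 in DMSO, and POLR2J 1124 in DTHIB and 1238 in DMSO. Of the POLR2L exon bases 22.5% overlap CD151 on the opposite strand, and strand use in counting is not stated. Among catalytic subunits, POLR2B had 999 per kilobase in DTHIB and 1236 in DMSO, POLR2A 597 in DTHIB and 740.3 in DMSO, POLR1A 329 in DTHIB and 261 in DMSO, and POLR3A 239.9 in DTHIB and 256 in DMSO. POLR3G and POLR3GL had similar levels per kilobase in DTHIB, 98.4 and 93.2, against 176 and 120.2 in DMSO. In Mediator the highest was MED29, with 615 in DTHIB and 668 in DMSO, and among the lowest was MED12L, with 9.82 in DTHIB and 14.5 in DMSO. MED12 reached 219 in DTHIB and 153 in DMSO. The exon length is the union of all annotated transcripts and can exceed the longest of them. For MED17 the union is 16610 bases and the longest transcript 5142 bases, and which exons were used was not tested. MED17 also averaged only 179 normalized counts in DTHIB and 168 in DMSO.

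**Figure D4:**
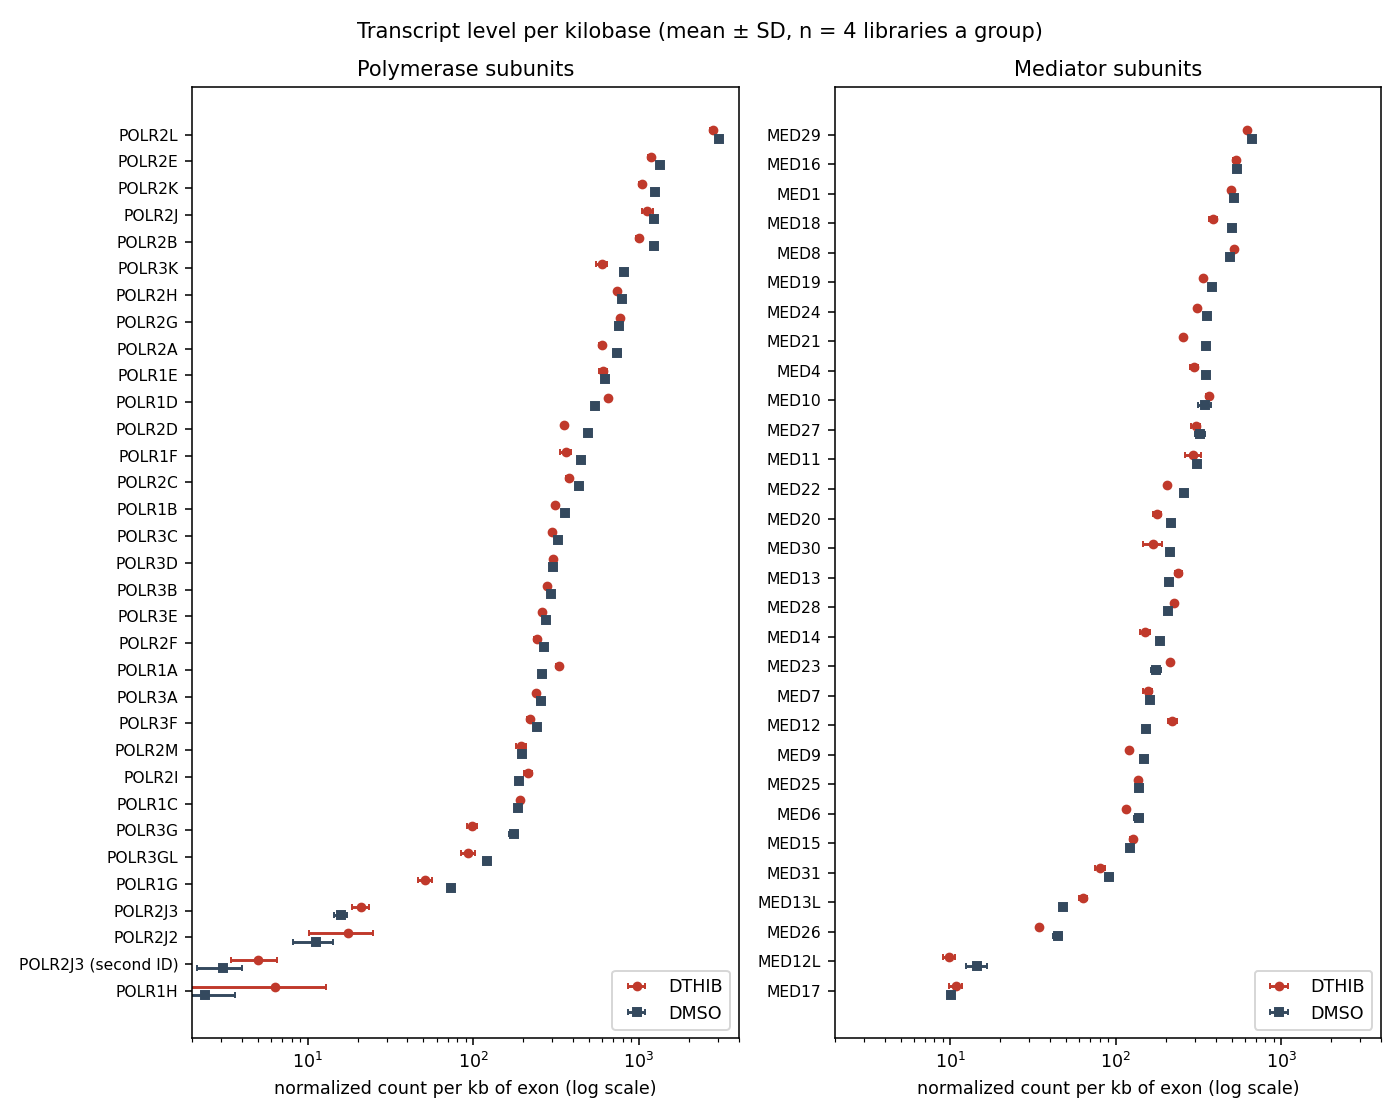
Mean ± SD of the normalized count per kilobase of exon (log scale) for 63 of the 64 genes in 4 DTHIB (circles) and 4 DMSO libraries (squares), polymerase subunits on the left and Mediator on the right, ordered by the DMSO level; error bars of POLR1H run past the left edge. POLR2L is highest in both groups, at 2806 in DTHIB and 3031 in DMSO, and MED12 is higher in DTHIB (219) than in DMSO (153).

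The changes were also set beside transcript length. Of the 9 genes whose longest annotated transcript (GENCODE) exceeds 6000 bases, 5 rose (POLR1A, MED28, MED12, MED13 and MED13L), 3 fell (POLR2A, MED14 and MED12L) and POLR3A did not pass, with a median log2 fold change of 0.13. Of the 55 with shorter transcripts, 5 rose and 31 fell, with a median of -0.12. Across the 64 genes the log2 fold change correlated with log2 transcript length at Pearson's r = 0.21 and Spearman's rho = 0.22, against -0.07 and -0.05 across 17164 tested genes. Within the 34 polymerase genes r was 0.10 and rho 0.07, and within the 30 Mediator genes r was 0.36 and rho 0.33. Over all tested genes 31.0% rose and 33.7% fell. These correlations are across genes of the same libraries and are a description. The part of length in the results was not tested beyond the fit with length and GC trends removed, in which 9 members rose and 35 fell.

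Other genes of the transcription machinery were taken from 8 lists. Of 102 genes listed, 98 were tested; 63 fell, 15 rose and 20 did not pass, with a median log2 fold change of -0.15, beside 33.7% of all tested genes lower, 31.0% higher and a median of -0.01. Of the Pol II pausing and elongation factors, 17 of 23 tested fell and 4 rose (median -0.23). HEXIM1, which holds the elongation kinase P-TEFb inactive, averaged 1695 ± 16.8 in DTHIB and 2945 ± 102 in DMSO (SD, n = 4 each), a difference of -0.80 on the log2 scale (SE 0.033, limma adjusted p = 1.46e-12). MEPCE, which caps and stabilises the small nuclear RNA of the same inhibitory complex, fell (log2 fold change -0.54, limma adjusted p = 2.17e-10), and so did the elongation factor ELL2 (log2 fold change -0.75, limma adjusted p = 4.29e-10). The kinase gene itself, CDK9, rose (log2 fold change 0.13, limma adjusted p = 0.00731). The cyclin genes of the same list were split. CCNT1 fell (log2 fold change -0.20, limma adjusted p = 3.52e-05) and CCNT2 rose (log2 fold change 0.11, limma adjusted p = 0.0124). In the list of TBP and TFIID, which recognises core promoters, 10 of 15 tested fell and 2 rose (median -0.23). TAF5, a TFIID core subunit, averaged 439.8 ± 53.2 in DTHIB and 783 ± 18.8 in DMSO, a difference of -0.84 on the log2 scale (SE 0.068, limma adjusted p = 1.02e-08); TAF3 (log2 fold change -0.42, limma adjusted p = 9.28e-06) and TAF9B (log2 fold change -0.36, limma adjusted p = 6.48e-06) also fell.

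Of the Pol II general factors, 9 of 16 tested fell and 3 rose (median -0.14), beside 33.7% of all tested genes lower and 31.0% higher. The TFIIA genes GTF2A1 (log2 fold change -0.35, limma adjusted p = 8.76e-09) and GTF2A2 (log2 fold change -0.37, limma adjusted p = 1.46e-08) both fell, and GTF2H2 fell with log2 fold change -0.73, limma adjusted p = 1.06e-06, a gene with copies that make its counts uncertain. GTF2H4 was listed at 0 in all 8 libraries. In the list of Pol I factors (RRN3, UBTF, TAF1A, TAF1B, TAF1C, TAF1D, TTF1 and CAVIN1), 5 of 8 fell and 2 rose (median -0.14). The UBTF fall (log2 fold change -0.07, limma adjusted p = 0.0443) passed in 6 of 18 alternative settings. TAF1D (log2 fold change 0.35, limma adjusted p = 1.53e-06) and TAF1C (log2 fold change 0.30, limma adjusted p = 2.11e-05), subunits of the promoter selectivity factor, rose. RRN3, which recruits Pol I to that factor, had 177, 339, 616 and 189.5 in DTHIB, against 539, 474, 381 and 515 in DMSO, a difference of -0.71 on the log2 scale (SE 0.27, limma adjusted p = 0.0274). Its groups overlapped, and RRN3 has copies that can divide its reads. It passed in 11 of 18 settings, and not with edgeR (edgeR adjusted p = 0.114) or DESeq2 (DESeq2 adjusted p = 0.302) nor, with limma, without replicate 1 or 4 of either group (limma adjusted p = 0.0597 to 0.118). Its change ran from -1.07 without DTHIB replicate 3 to -0.47 without DTHIB replicate 1.

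Of the Pol III initiation factors, 7 of 15 tested fell and 2 rose (median -0.10), beside 33.7% of all tested genes lower and 31.0% higher. The TFIIIC subunits GTF3C2 (log2 fold change -0.41, limma adjusted p = 3.59e-08) and GTF3C5 (log2 fold change -0.38, limma adjusted p = 2.31e-07) fell, as did SNAPC5 (log2 fold change -0.23, limma adjusted p = 8.51e-05), a subunit of the complex at small nuclear RNA promoters. Of the factors that assemble polymerases before nuclear import, some of which work with the chaperone HSP90, 7 of 12 fell and 2 rose (median -0.11, or -0.03 with quantile normalization), and 5 in place of 9 changed with DESeq2. GPN3, a GTPase needed for that import, averaged 1239 ± 45.5 in DTHIB and 1778 ± 38.0 in DMSO, a difference of -0.52 on the log2 scale (SE 0.037, limma adjusted p = 1.96e-09); RPAP3 (log2 fold change -0.26, limma adjusted p = 1.98e-05; -0.16 with length and GC trends removed) and RUVBL2 (log2 fold change -0.25, limma adjusted p = 1.02e-05), which act in the HSP90 co-chaperone complex, fell by less. Of the mitochondrial transcription genes, 5 of 6 fell and 0 rose (median -0.15), with MTERF1 (log2 fold change -0.48, limma adjusted p = 2.76e-08) and TFAM (log2 fold change -0.36, limma adjusted p = 5.83e-08) lowest and TEFM (log2 fold change -0.18, limma adjusted p = 0.0159) after them; the list had 3 genes changed in place of 5 with quantile normalization or DESeq2, and TEFM passed in 14 of 18 settings and lost its call without DTHIB replicate 4 (limma adjusted p = 0.0581) or DMSO replicate 1 (0.0552).

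**Figure D5:**
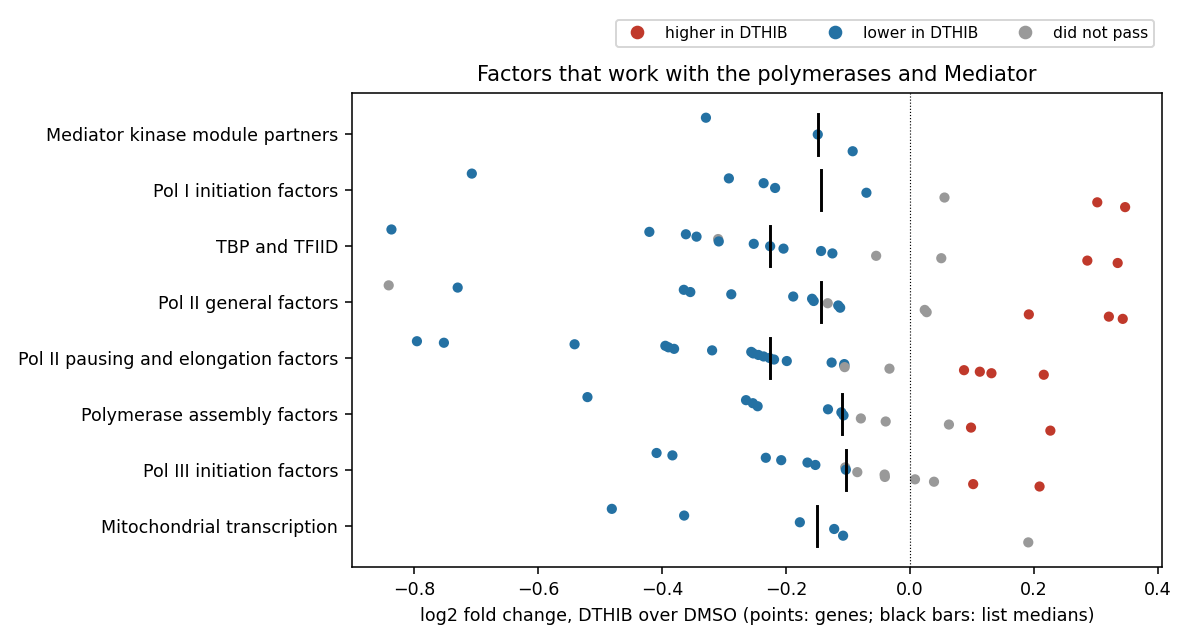
Log2 fold change (DTHIB over DMSO) of each tested gene (points) in 8 lists of genes that work with the polymerases and Mediator; red was higher, blue lower, grey did not pass, and black bars are list medians. All 8 medians lie below 0, between -0.23 and -0.10.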

How the data were processed

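Poly(A)-enriched RNA of C4-2 cells was sequenced in 8 libraries. The deposited table holds a signal per gene, normalized counts that the authors made by dividing read counts by a DESeq2 size factor for each library. Per the submitters' processing notes, the tools included HISAT2 2.1.0 on GRCh38, featureCounts 1.6.3, DESeq2 2.11.40.2, StringTie 1.3.4 and Trimmomatic 0.36.5; the annotation and strand setting were not stated there. A second deposited table holds the authors' log2 fold changes and their standard errors, a score (the Wald statistic) and p-values; its signs matched DTHIB minus DMSO in 99.96% of tested genes. Of the 64 genes, the authors' deposited table had 7 higher and 31 lower at an adjusted p of 0.05.

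Samples were grouped by their labelled treatment. Genes with a mean of 10 or more (17194) were tested with limma 3.58.1 (R 4.3.3, two-sided, expression trend) on log2(normalized count + 1), so fold changes of low genes are understated, with Benjamini-Hochberg adjustment over all tested genes and a threshold of 0.05. Symbols were those of the tables (58472 genes); positions came from GENCODE 29 (58611 genes). In each library 100% of values were whole multiples of 1 read within 0.01; edgeR 4.0.16 and DESeq2 1.42.0 were run on these recovered counts as alternatives. In 3 libraries (DTHIB 3, DTHIB 4 and DMSO 4) a read is worth within 0.5% of 1, so that recovery there is less certain than in the other 5. Same-numbered replicates did not deviate together, so the fits are unpaired. Promoters on chromosome 8 were searched for motifs but not considered for printing.

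The genes and lists were chosen with earlier results of these data known. Values per library were given for catalytic subunits, paralogs and, in each complex, the 3 largest called rises and falls; in related lists up to 3 called genes with the largest changes, with CDK8, CDK19 and CCNC always named. CDK9, CCNT1, CCNT2, MED1 and other subunits named beside them were chosen as members or after their values were seen. The counts and medians cover all 64 genes, but 1 of them is not reported here by name.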

Additional observations from a re-analysis of the deposited data

Results flagged for a closer look

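Each of the 64 genes was looked at in each group for a library whose gap to the nearest of the other 3 exceeded Dixon's 95% limit, 128 groups in all. Chance flags about 1 in 20 such groups, and 5 were flagged. POLR2C had its lowest DTHIB value, 1403 normalized counts, in replicate 2, with the other DTHIB libraries at 1506 to 1522. MED17 had its lowest DTHIB value, 156, in replicate 1, with the others at 185 to 188. POLR3A had its highest DMSO value, 2479.6, in replicate 1, with the others at 2199 to 2229. POLR3D had its highest DMSO value, 1761, in replicate 4, with the others at 1661 to 1671. MED10 had its highest DMSO value, 732, in replicate 3, with the others at 614 to 624. Of these genes only POLR2C was called, and it kept its call in all 18 alternative settings.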

How the results depend on the processing

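Of the 44 called subunits, 6 higher and 26 lower kept their call in all 18 alternative settings, and 12 changed in some: POLR2F, POLR2H, POLR2L, POLR2I, POLR2J, both POLR2J3 identifiers, POLR3B, POLR3C, POLR3F, MED28 and MED29. The split moved most with quantile normalization, to 13 higher and 27 lower. It was 9 and 30 with DESeq2, 11 and 33 with edgeR, and 9 and 35 with length and GC trends removed. The last of these alternatives was chosen after seeing the data. Over all tested genes the split moved too, from 5324 higher and 5786 lower to 5610 and 5164 with quantile normalization. It was 5067 and 5216 with DESeq2, 5560 and 5570 with edgeR, and 5266 and 5728 with length and GC trends removed. The shift with quantile normalization was thus not confined to the subunits, and its cause was not tested. With quantile normalization, medians were -0.029 for Pol I, -0.032 for shared subunits, 0.054 for Pol II, -0.059 for Pol III and -0.050 for Mediator; higher counts were 2 shared, 1 Pol II, 1 Pol III and 8 Mediator, and lower counts 2 shared and 4 Pol III. POLR1E (0.064), POLR2H (0.0053), POLR2M (0.054), POLR3E (0.029), MED1 (0.034), MED16 (0.060) and MED25 (0.041) then changed sign. A mean of at least 50 gave medians of -0.21 for Pol I and -0.14 for Pol II, since it leaves out low genes. DESeq2 gave 4 lower Pol III genes. With length and GC trends removed, 2 shared subunits were higher, the Pol II median was 0.024, POLR2M (0.090), MED7 (0.062) and MED15 (-0.015) changed sign, and the MED13 over MED13L difference was -0.12. Leaving out 1 library in turn gave 1 to 2 higher Pol I genes, 1 to 3 higher Pol II genes, and medians of -0.29 to -0.095 for Pol I, -0.056 (without DTHIB replicate 3) to 0.015 (without DTHIB replicate 4) for Pol II and -0.14 to -0.086 for Mediator. Uncalled genes that changed sign without 1 library were POLR1H (-0.36 to 1.58), POLR2M (-0.056 to 0.015) and MED16 (-0.045 to 0.0048). Uncalled genes that gained a call in 1 or more settings, beside those named with the results above, were POLR1C (0.11 with quantile normalization or length and GC trends removed), POLR2G (0.12) and POLR3D (0.10) with quantile normalization, and POLR3E (-0.10) with length and GC trends removed.

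The replicate block changed no subunit's call (10 higher and 34 lower) and gave 5288 higher and 5770 lower genes over all tested. Same-numbered libraries correlated at -0.07, 0.01, 0.01 and 0.0018 in their deviations, and not every library correlated best with its own number. Whether same-numbered libraries share a culture or day is not labelled, and these correlations cannot settle it. The paralog differences were -0.47 for POLR3G over POLR3GL, 1.07 for MED12 over MED12L and -0.23 for MED13 over MED13L. The replicate block cannot change their size, because every replicate number is present in both groups. With the block, their exact sign-flip p is 0.125, the smallest that 4 pairs allow.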
